A study of Mus musculus with 6 samples.

Results

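The array carries 4449 probes that are named only by a stretch of the mouse genome and a strand suffix, F or R, with no gene symbol. These coordinate-named probes fall in 3229 ranges of 62 to 538251 bp (median 7207 bp), or 4061 ranges when the strand is kept. A probe was taken as a member when the scanner software called it well above background on all 3 arrays of the knockout or on all 3 arrays of the control livers. That left 1714 member probes (38.5%), 857 with suffix F and 857 with suffix R, in 1621 ranges with strand. Because the members were selected on their detection in these arrays, detection is given as a description and is not tested. Whether the ranges are intergenic and their transcripts noncoding could not be checked, since the array files give coordinates only. All coordinates are in mm9, the build named in the array headers. The sources used here do not say which RNA strand a suffix stands for, and no annotation of that build was used, so genes, exons and introns around the ranges were not analysed here.

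Livers came from 6 male mice, 3 with a liver-specific knockout of Elovl6 (LKO) and 3 controls whose titles read Flox. The same high-sucrose diet, D11725, was given to both groups for 14 days and food was withdrawn 4 hours before the tissue was frozen, so the comparison is of genotype under that diet only. The sources used here name neither the Cre line nor the age of the mice. Total RNA of each mouse was labelled with the dye Cy3 and put on 1 array of a single slide. Elovl6 encodes the enzyme that elongates palmitate to stearate, a step of fatty acid synthesis in the liver.

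Long noncoding RNAs are transcripts, often spliced and polyadenylated, that encode no protein. Many are transcribed between protein-coding genes or opposite to one, are less abundant than messenger RNAs and are made in few tissues. A pair of transcripts can also arise from opposite strands of the same stretch of DNA, which is why an array meant to detect such RNAs can carry a probe for each strand of a range.

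The check of the genotype held in every mouse. The Elovl6 probe had processed signals (background-corrected fluorescence) of 6364, 12350 and 6624 in the control livers and 62.3, 88.5 and 99.6 in the LKO livers, a log2 difference of -6.51 ± 0.30 (SE, n = 3 and 3; limma, adjusted p = 0.00264). Between 52.06 and 56.56% of the spots on an array were well above background and none was saturated. The 7 hepatocyte markers were bright on all arrays, with a summed signal, before scaling, of 1.45e+06 to 1.55e+06 in control and 1.44e+06 to 1.51e+06 in LKO livers. After scaling, 6 of them had higher values in LKO and 1 a lower value. Fgb and Ambp, both higher, had an unadjusted p under 0.05 (limma), and no hepatocyte marker passed an adjusted p of 0.05. Neutrophil markers had higher values in LKO, where their summed signal ran from 845 to 4427, highest in LKO 3, against 329 to 613 in control livers. All 3 tested markers of 4 on the array (S100a8, S100a9, Retnlg) had an unadjusted p under 0.05, while none passed an adjusted p of 0.05 and Ngp was not above background. Values of all 6 markers of Kupffer cells and macrophages were higher in LKO, 2 of them (Marco and Lyz2) at an unadjusted p under 0.05, with overlapping summed signals of 14910 to 21740 and 18520 to 23110. In whole liver, fewer cells of a type and less RNA per cell cannot be told apart.

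Detection of the coordinate-named probes differed more between mice than between genotypes. In control livers 1743, 2008 and 1821 of the 4449 probes were well above background (39.2, 45.1 and 40.9%), and in LKO livers 1926, 1772 and 1887 (43.3, 39.8 and 42.4%). The groups overlapped, and control 2 had the highest share among the coordinate-named probes as well as among all probes of the array (54.6%). On F the shares ran from 38.9 to 45.5% and on R from 39.5 to 44.7%, so neither strand was called more often. By the rule used for the members, 32.3% of the 2477 probes for curated noncoding RNAs of RefSeq (accessions starting NR) were above background, 22.4% of the 2549 probes for predicted noncoding RNAs (XR) and 63.1% of the 29638 probes for curated messenger RNAs (NM). The coordinate-named probes, at 38.5%, lay between the noncoding and the messenger RNA classes.

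**Figure D1:**
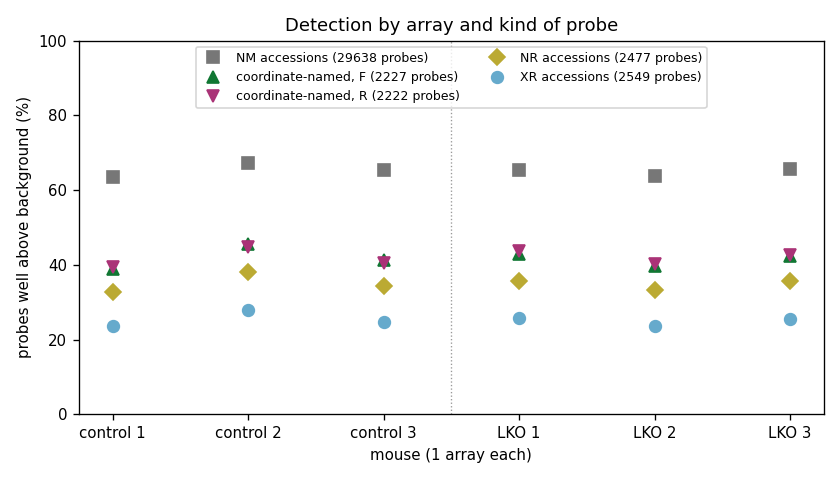
Percentage of probes called well above background on each array (y axis) for each of the 6 mice (x axis), by kind of probe. F and R probes of the coordinate-named set lie close together at 38.9 to 45.5% on every array, above the probes for NR and XR accessions and below those for NM accessions, and control 2 is highest for every kind.

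Most members were above background in every mouse. Of the 1714, 1565 were called on all 6 arrays. Another 77 qualified through the control group alone, of which 57 were still called on 2 LKO arrays, 18 on 1 and 2 on none. Through the LKO group alone 72 qualified, with 50, 15 and 7 called on 2, 1 and 0 control arrays. The detection calls of the probes in these 2 sets had to differ between the groups, which favours a difference in signal. In value, 13 of the 77 were still higher in LKO and 4 of the 72 lower. The main counts of differences below are therefore given also for the 1565 members called on all 6 arrays. Counts for ranges with several members or with both strands, and most counts under alternative settings, include the probes of these 2 sets. Outside the rule, 2108 coordinate-named probes were called on no array and 627 on 1 or more arrays without filling a group.

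Longer ranges held members more often. Among ranges with a single probe on a strand, 27.9% of those under 1 kb held a member, against 40% from 1 to 10 kb, 41.8% from 10 to 50 kb and 43.2% at 50 kb or more. Chromosome 14 had the highest share of its coordinate-named probes among the members (51.1%) and chromosome X the lowest (26.4%, 46 of 174). A range was not read uniformly by its probes: of 316 ranges with at least 2 probes on a strand, 71 had all of them among the members, 124 some and 121 none.

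The member signals covered the range from the background to some of the bright spots of the array. Their median processed signal over the 6 arrays was 98.1, with quartiles of 43.4 and 347; by strand it was 104 on F and 91.4 on R. The members' median resembled that of the NR probes above background (91.4) and lay below that of the NM probes (290), as a description of brightness, since the signal of a probe depends also on its sequence and cannot be read as abundance. On each array between 219 and 245 members exceeded a signal of 1000 and between 41 and 46 exceeded 10000. Medians of the members ran from 97.7 to 106.9 in control and from 93.8 to 98.2 in LKO livers before scaling, when the 75th percentile of all spots was also higher in control (287 to 298) than in LKO arrays (265 to 274).

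The brightest member of all lay on chromosome 1 (chr1:193875525-193978800, R; probe A_30_P01027122). Its signals were 82262, 106288 and 92774 in control and 123656, 119311 and 104426 in LKO livers. After scaling of each array to its 75th percentile the groups did not overlap, with LKO higher by 0.42 ± 0.14 on the log2 scale, and the difference did not pass the adjusted threshold (limma, adjusted p = 0.369). The other member of this range and strand, A_30_P01030147, was dim, with a mean signal of 22.8, and differed in the opposite direction (-0.63). The next brightest, A_30_P01031448 (chr14:78924115-78938125, F), ran from 92546 to 110048 in control and from 92726 to 100760 in LKO livers, a difference of 0.06 ± 0.10. A_30_P01032016 (chr6:83368261-83407280, F) gave -0.01 ± 0.09 and A_30_P01023523 (chr6:116092274-116144199, F) gave -0.03 ± 0.10. The remaining members of the 6 brightest were the F and R probes of one range, chr12:73838608-73862621, described below. In all of these 6 except the chromosome 1 probe the groups overlapped.

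At the other end stand probes near the limit of the detection rule. Just inside it was A_30_P01026896 (chr9:114412295-114418384, F), called on all 3 LKO arrays and 1 control array, with signals of 8.96, 20.8 and 11.9 in control and 17.9, 20.2 and 18.05 in LKO livers. A_30_P01030499 (chr8:47813487-47824869, R) was just inside as well, with 7.79, 11.4 and 14.2 against 18.5, 18.7 and 28.2. The probes named outside the rule were picked by mean signal, which a single bright array can raise, and both were bright on 1 array only. A_30_P01025127 (chr12:4554378-4560302, R) gave 280.2 in LKO 1 and 15.5 to 21.7 in the other mice, and A_30_P01020484 (chr17:5798656-5802900, F) gave 356 in control 3 and 3.10 to 4.24 elsewhere. Apart from control 3, A_30_P01020484 thus lay well below the limit, since no signal under 14.2 was called on any array.

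Strand by strand, 832 ranges had probes on both strands, 1236 on F only and 1161 on R only. In the 832, both strands held members in 205 (24.6%), F alone in 189 (22.7%), R alone in 196 (23.6%) and neither in 242 (29.1%). An R member was present in 52% of the ranges with an F member and in 44.7% of those without, so a call on one strand went only weakly with a call on the other. Of the 2397 ranges with probes on a single strand, 826 (34.5%) held a member. Across the 205 ranges with members on both strands, the log2 mean signals of the F and the R member (the brightest where a strand held several) had a Pearson correlation of 0.07, given as a description across ranges that share the same 6 arrays.

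The bright end of the 205 included ranges with strong signal on both strands. At chr12:73838608-73862621 the F probe A_30_P01020570 gave 90084, 82279 and 81246 in control and 80572, 79344 and 68696 in LKO livers, and the R probe A_30_P01031264 gave 92896, 83738 and 81005 against 81222, 82782 and 75677. Scaled differences were -0.04 ± 0.10 on F and 0.01 ± 0.09 on R, within the spread between mice. At chr5:34696192-34722842 the F probe A_30_P01023896 ran from 16131 to 20717 and the R probe A_30_P01027463 from 3225 to 3816 over the 6 mice, with differences of -0.03 ± 0.10 and 0.03 ± 0.09. The F and R probes at chr16:8738782-8830148 (A_30_P01022742 and A_30_P01018039) differed by 0.13 ± 0.11 and -0.02 ± 0.11. Those at chr6:47687025-47728525 (A_30_P01020383 and A_30_P01028952) differed by 0.10 ± 0.14 and 0.04 ± 0.10. In these 4 ranges the groups overlapped on both strands.

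No member passed the adjusted threshold in the comparison of LKO with control (limma, Benjamini-Hochberg adjustment over the 27950 probes tested). Of all tested probes 6 did (0.0215%), a number that was 3 without control 1, 3 without control 3, 10 without LKO 1 and 2 without LKO 3. At an unadjusted p under 0.05, 117 members were higher in LKO (6.83%, against 5.42% of all tested probes) and 63 were lower (3.68%, against 5.4%). Among the 1565 members called on all 6 arrays these numbers were 98 (6.26%) and 53 (3.39%), against 5.01 and 5.07% of all probes called on all 6 arrays. The split between directions depended on how the arrays were scaled: with each array centred on its median, which moved the median difference of all tested probes from 0.00 to -0.05 on the log2 scale, 71 members were higher and 93 lower. No direction is therefore given for the members as a set, and the shares of all tested probes were not counted with that centring. With the slide column as a covariate, which sets LKO 1 alone against the 3 controls of its column, 101 members had an unadjusted p under 0.05, 68 higher and 33 lower.

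All 3 LKO values lay above all 3 control values in 156 members (9.1%, against 7.9% of all tested probes) and below them in 104 (6.07%, against 9.11%). Of the members called on all 6 arrays, 136 (8.69%) lay above and 90 (5.75%) below, against 7.66 and 8.93% of all probes called on all 6. With median centring these counts were 88 and 148, and with another background correction (normexp) 231 and 90. Fewer arrays make such a separation easier, and the total of 260 rose to 496 without control 1, 396 without control 2, 430 without control 3, 469 without LKO 1, 449 without LKO 2 and 414 without LKO 3. The shares of all tested probes were not counted under these alternative settings, so these counts are not set against them. By strand, among members called on all 6 arrays, 54 on F were higher (6.9%) and 19 lower (2.43%) at an unadjusted p under 0.05. On R, 44 were higher (5.63%) and 34 lower (4.35%), against 5.01 and 5.07% of all probes called on all 6 arrays. Whether the strands differ in these shares was not tested, and the split of the members by direction depended on the scaling. With 3 mice a group an exact permutation test of a single probe cannot give a two-sided p below 0.1.

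Differences were small for most members. Among the 1565 called on all 6 arrays the median log2 difference was 0.03, with 5th and 95th percentiles of -0.27 and 0.42, against -0.33 and 0.37 for all probes called on all 6 arrays, and the median SE was 0.12. At least 2-fold higher values in LKO were found for 3 of these members and at least 2-fold lower values for 3 (0.192% each), against 0.277 and 0.361% of all probes called on all 6 arrays. Dim members varied more: 349 with a mean signal under 50 had a median SE of 0.16, 873 from 50 to 500 had 0.12 and 343 at 500 or above had 0.10. In these brightness classes 12.3, 8.59 and 9.62% of the members had an unadjusted p under 0.05, against 11.1, 9.46 and 10.5% of all probes called on all 6 arrays. Within a class, the members' share was thus near that of all probes.

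**Figure D2:**
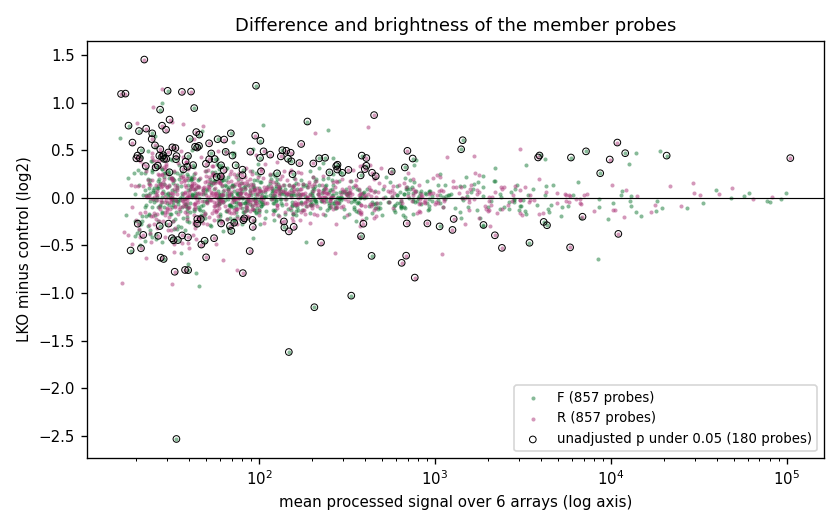
LKO minus control difference on the log2 scale (y axis) against the mean processed signal over 6 arrays (x axis, log scale) for the 1714 member probes, coloured by strand suffix, with 180 probes at an unadjusted p under 0.05 ringed. Between the 5th and 95th percentiles the points lie within -0.33 to 0.45, the scatter is wider at the dim end, and the lowest value is -2.54.

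The member with the smallest p was A_30_P01021359 at chr17:71183978-71185384, F, a range of 1407 bp. Its signals were 72.4, 60.4 and 54.5 in control and 129.99, 132.5 and 127.9 in LKO livers. Every LKO liver was thus brighter than every control liver, with a log2 difference of 1.18 ± 0.12 (2.27-fold; limma, adjusted p = 0.0775). The adjusted p moved below 0.05 under 3 of the alternatives: 0.0376 with normexp, where the difference was 0.71, 0.0488 on the authors' value table and 0.037 with a trended, robust variance model, and over all alternatives it ran from 0.037 to 0.363. At a distance of 56949 bp, at chr17:71242333-71273533, the F probe A_30_P01032549 also had higher values in LKO, with 18068 and 17477 in control 2 and 3 (the control 1 spot was an outlier and left out) and 19562, 23496 and 25279 in LKO livers, a difference of 0.45 ± 0.14 (adjusted p = 0.382). The R probe of that second range, A_30_P01017996, differed by -0.05 ± 0.10 (adjusted p = 0.904).

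On chromosome 15, A_30_P01027131 (chr15:12119755-12127230, R) gave 25.2, 21.7 and 25.8 in control and 55.3, 48.5 and 42.5 in LKO livers, a difference of 1.12 ± 0.13 (adjusted p = 0.114). The signals are near the background and the difference was 0.39 under normexp. At chr5:112297381-112328281 both strands had members. The F probe A_30_P01027070 gave 53.2, 56.8 and 57.0 against 79.8, 75.2 and 93.7 (0.68 ± 0.11, adjusted p = 0.183), and the R probe A_30_P01031753 gave 42.1, 36.7 and 35.2 against 44.2, 48.9 and 60.2 (0.53 ± 0.13, adjusted p = 0.286). Neither strand overlapped between the groups, while 3 probes in ranges 56389 or 62672 bp away differed by 0.00, 0.07 and 0.25, each with overlapping groups.

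A_30_P01027032 (chr10:126818382-126856582, R) rested on signals of 26.2, 20.9 and 23.4 in control and 38.3, 32.8 and 44.8 in LKO livers (0.82 ± 0.13, adjusted p = 0.192). The F probe of the same range, A_30_P01027149, was bright, at 6733, 6032 and 6297 against 5943, 7023 and 6948, and its groups overlapped (0.17 ± 0.10). F members in overlapping ranges, A_30_P01028808 and A_30_P01019616, differed by 0.07 ± 0.10 and 0.25 ± 0.15. A_30_P01021678 (chr11:31648453-31648952, R) gave 77.3, 74.5 and 80.02 against 104.5, 104.9 and 130.5 (0.66 ± 0.11, adjusted p = 0.206). The last of the 6 higher members by p, A_30_P01023122 (chr5:124489025-124506750, F), gave 41.2, 31.4 and 38.9 against 47.8, 54.7 and 61.1 (0.67 ± 0.14, adjusted p = 0.232). These 6 higher members were dim, with no signal above 132.5 on any array. Under normexp the differences of A_30_P01027070, A_30_P01027032 and A_30_P01023122 were 0.41, 0.26 and 0.32.

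Lower in LKO with the smallest p was A_30_P01032968 (chr14:26834450-26847000, R), with 899.5, 1128 and 1013 in control and 580.2, 478 and 516 in LKO livers (-0.84 ± 0.13, 1.79-fold; adjusted p = 0.171). An F probe inside that range, A_30_P01025655, stayed near the background in both groups at 21.5 to 28.9 and 18.6 to 29.3 (0.06 ± 0.20). Also on chromosome 14, A_30_P01023742 (chr14:62263564-62307496, R) gave 839, 847 and 772 against 543, 491 and 395 with no overlap (-0.68 ± 0.14, adjusted p = 0.229). Probes in 3 overlapping R ranges did not share that difference: A_30_P01025495, A_30_P01019014 and A_30_P01023578 had values of 0.68 ± 0.39, 0.45 ± 0.30 and 0.29 ± 0.19, each with overlapping groups.

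A_30_P01024405 (chr8:72663625-72673010, R) was the brightest of these 6 lower members, at 2862, 3269 and 2662 in control and 1967, 1756 and 1921 in LKO livers (-0.53 ± 0.11, adjusted p = 0.232). On the opposite strand the same range and those overlapping it held 4 F members with differences of -0.09 to 0.01, so the difference was seen with the R probe and not with the F probes; the contrast between strands was not tested. A_30_P01021461 (chr2:119697845-119719245, F) gave 382, 606 and 396 against 173, 188 and 264 (-1.03 ± 0.24, adjusted p = 0.268). A_30_P01019754 (chr3:75451370-75459674, R) gave 72.0, 54.0 and 61.8 against 43.9, 32.5 and 36.5 (-0.63 ± 0.14, adjusted p = 0.263), and A_30_P01028839 (chr17:3103174-3114885, F) gave 38.6, 36.4 and 38.7 against 27.4, 23.98 and 27.2 (-0.42 ± 0.09, adjusted p = 0.23). Under normexp these dim probes differed by -0.15 and -0.10, and a fit that includes the slide column gave -0.41 for A_30_P01019754. The R probe of the chromosome 17 range, A_30_P01017660, differed by -0.14 ± 0.14 with overlapping groups. Of the F members 91431 and 99033 bp away, A_30_P01032842 gave 0.21 ± 0.15 (adjusted p = 0.679) and A_30_P01024440 gave 0.22 ± 0.09 (adjusted p = 0.441), opposite in sign to A_30_P01028839. The groups of A_30_P01024440 lay apart, at 52.9, 56.7 and 56.5 in control and 61.7, 58.6 and 58.8 in LKO livers (limma, unadjusted p = 0.040).

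**Figure D3:**
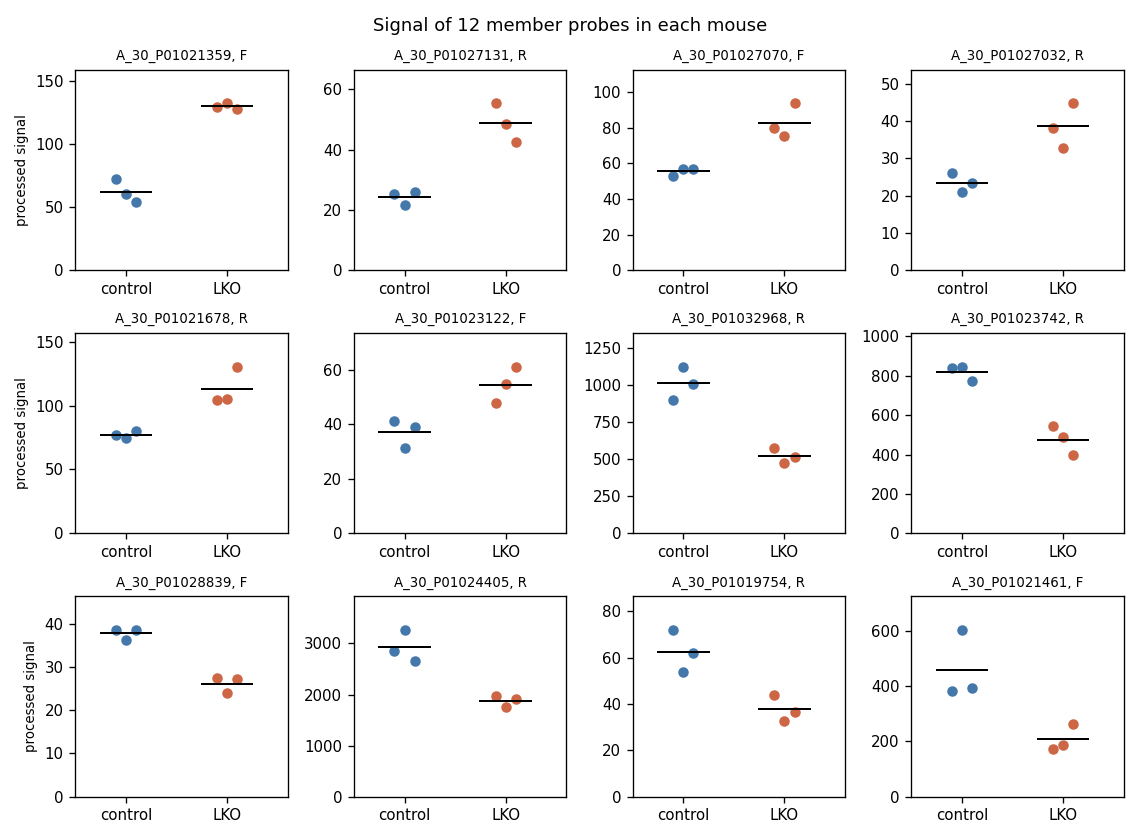
Processed signal (y axis, from 0, a separate scale for each probe) in each of the 3 control (blue) and 3 LKO (orange) livers for the 6 higher and 6 lower members with the smallest p among those on all 6 arrays; black lines are group means. Only members without overlap between the groups were taken, so the groups lie apart in every panel by selection. In the first they ran from 54.5 to 72.4 against 127.9 to 132.5, while none of the 12 passed the adjusted threshold.

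Of the 6 members past 2-fold on all 6 arrays, 3 are given above and 3 are named after their values were seen. A_30_P01030169 (chr10:92547995-92556102, F) gave 205, 299.8 and 164 in control and 83.4, 32.3 and 103 in LKO livers (-1.62 ± 0.44, limma adjusted p = 0.3). A_30_P01027150 (chr14:73757550-73758159, R) gave 24.3, 22.6 and 30.4 against 34.7, 92.4 and 42.4, with LKO 2 far above the other livers (1.12 ± 0.37, adjusted p = 0.369). The last, A_30_P01021853 at chr16:23992037-24001037, is described with its opposite strand.

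Detection in a single genotype is described by bounds. Where a probe was not well above background on any array of a group, the fold is the bright group's mean over the larger of the dim probe's own signal and the lowest signal well above background on each array, on the scaled log2 values. Such a bound holds for the group means under the main scaling and background correction only. It does not allow for the spread between mice, and alternative settings can give a smaller fold. A_30_P01023107 (chr6:28164118-28165468, F) was called on all control arrays, at 46.5, 21.4 and 111, and on no LKO array, at 4.12, 12.8 and 8.46. It was at least 2.71-fold lower in LKO (limma, adjusted p = 0.29), its control values spread widely, and its fitted difference of -2.54 was -0.62 under normexp. The other control-only probe, A_30_P01025963 (chr1:42759171-42771337, F), was at least 1.18-fold lower with overlapping values; its fitted difference of -0.24 was -0.06 without control 1 and -0.38 without control 2.

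In the opposite direction, 4 of the 7 probes called on all LKO and no control arrays are named. A_30_P01024207 (chr17:27706143-27706808, R) was at least 1.63-fold higher, with 21.7, 15.4 and 16.2 in control and 20.8, 24.4 and 38.7 in LKO livers. A_30_P01026746 (chr8:129336539-129400338, R) was at least 1.4-fold higher, A_30_P01030499 (chr8:47813487-47824869, R) at least 1.37-fold and A_30_P01032106 (chr5:4570525-4597875, F) at least 1.35-fold, with LKO signals of 18.5 to 28.2 in these 3. Their adjusted p ran from 0.207 to 0.376, and their fitted log2 differences shrank to between 0.18 and 0.37 under normexp. The rule required the calls of these probes to differ between the groups, so the direction itself carries no information.

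Ranges read by several probes allow the measurement to be compared with itself. On a single strand, 83 ranges held at least 2 members. Their differences all had one sign in 41 of the 83 ranges, so probes of a range shared a sign no more often than not. The differences spanned a median of 0.15 on the log2 scale. For the 2 brightest probes of a range they had a Pearson correlation of 0.27 across the 83 ranges. At least 2 probes had an unadjusted p under 0.05 in 4 ranges, and exactly 1 probe in 11, or 20 of the 176 probes (11.4%, against 10.5% of the members and 10.8% of all tested probes). Probes of a range share its transcript, if there is one, and the same RNA samples, so they are not replicates of the genotype.

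Among the 3 ranges named for holding the most members, chr5:96591892-96606467, F, was read alike by its probes. A_30_P01027478 gave 9908, 10786 and 10882 in control and 11582, 13122 and 16184 in LKO livers. A_30_P01031757 gave 4904, 5419 and 5512 against 5808, 6368 and 7616. A_30_P01025234 gave 3248, 3565 and 3593 against 3896, 4218 and 5089.6. No probe overlapped between the groups, and the differences were 0.47 ± 0.14, 0.43 ± 0.13 and 0.45 ± 0.12 (limma, adjusted p = 0.334, 0.338 and 0.311). A fit that includes the slide column gave 0.24, 0.24 and 0.27. The highest value was in LKO 3 each time, the liver in which the neutrophil markers were also highest (S100a9 at 229, 426 and 349 in control and 579, 1455 and 3189 in LKO livers); their part in the result was not tested.

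At chr17:46972160-46997919, F, the signal depended strongly on the probe and hardly on the genotype. A_30_P01024700 ran from 11512 to 14986, A_30_P01027695 from 2740 to 3772 and A_30_P01028585 from 142 to 173 over the 6 mice, with differences of -0.03 ± 0.10, -0.08 ± 0.11 and 0.16 ± 0.11. At chr6:116123643-116124550, F, a range of 908 bp, the probes gave similar signals: 5143 to 6420 for A_30_P01026091, 4712 to 5977 for A_30_P01026611 and 4438 to 6225 for A_30_P01021866. A_30_P01026091 and A_30_P01026611 were each printed 10 times on each array. The SD among the spots was 0.0590 to 0.0926 for A_30_P01026091 and 0.0325 to 0.0535 for A_30_P01026611 on the log2 scale. Differences between the groups were -0.08, -0.10 and -0.19, none past the threshold.

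Further ranges whose probes differed alike were picked after their values were seen. At chr6:122741562-122743423, R, A_30_P01033408 gave 6871, 6551 and 7984 in control and 5158, 4469 and 4199 in LKO livers, and A_30_P01018332 gave 873, 818 and 862 against 623, 508 and 437. Both lay apart between the groups, lower in LKO by -0.52 ± 0.12 and -0.61 ± 0.14 (limma, adjusted p = 0.271 and 0.265). At chr14:55433382-55452757, R, A_30_P01026296 gave 8346, 9069 and 9096 against 9362, 10978 and 12332, and A_30_P01026835 gave 3328, 3402 and 3539.9 against 3657, 4112 and 5134 (0.40 ± 0.13 and 0.43 ± 0.14, adjusted p = 0.357 and 0.365). As at the chromosome 5 range, LKO 3 was the highest of the 6 livers for both probes.

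The differences of the F and the R member of a range had little in common. In the 205 ranges with members on both strands, the difference had the same sign on both strands in 105, and across ranges the F and R differences had a Pearson correlation of 0.11. Both strands had an unadjusted p under 0.05 in 4 ranges and 1 strand in 37, or 45 of the 410 probes (11%, near the 10.5% of all members), and the F and R differences lay a median of 0.18 apart. The 4 ranges showed every kind of relation. Besides chr5:112297381-112328281, with both strands higher, both were lower at chr16:23992037-24001037: the F probe A_30_P01021853 gave 249, 304 and 307 against 187, 83.8 and 108 (-1.15 ± 0.28, limma adjusted p = 0.282) and the R probe A_30_P01021393 gave 36.5, 52.4 and 40.2 against 29.2, 18.1 and 23.0 (-0.78 ± 0.21, adjusted p = 0.296). This R probe was called on 3 control and 2 LKO arrays and was a member through the control group alone. The detection rule thus favoured a lower LKO value for it, and its direction adds little to that of the F probe.

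In the remaining ranges the brightest F and R members went opposite ways. At chr5:35975265-35982561 the F probe A_30_P01024606 gave 1086, 1476 and 1035 in control and 1746, 1429 and 1866 in LKO livers (0.61 ± 0.17, limma adjusted p = 0.316), whereas the R probe A_30_P01032382 gave 12655, 12392 and 13614 against 9596, 9465 and 8506 (-0.38 ± 0.10, adjusted p = 0.29). At chr8:126268510-126290810 the brighter F probe A_30_P01028886 was lower, 1276, 1143 and 1226 against 967, 899.6 and 875 (-0.30 ± 0.09, adjusted p = 0.329), and the R probe A_30_P01022780 higher, 71.5, 77.3 and 82.4 against 88.3, 80.03 and 84.4 (0.24 ± 0.10, adjusted p = 0.452). A second F member of that range, A_30_P01027401, did not share the difference (-0.01, at a mean signal of 134). The F groups at the first of these ranges and the R groups at the second overlapped before scaling and lay apart after it. Whether the strands of a range differed from each other was not tested.

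**Figure D4:**
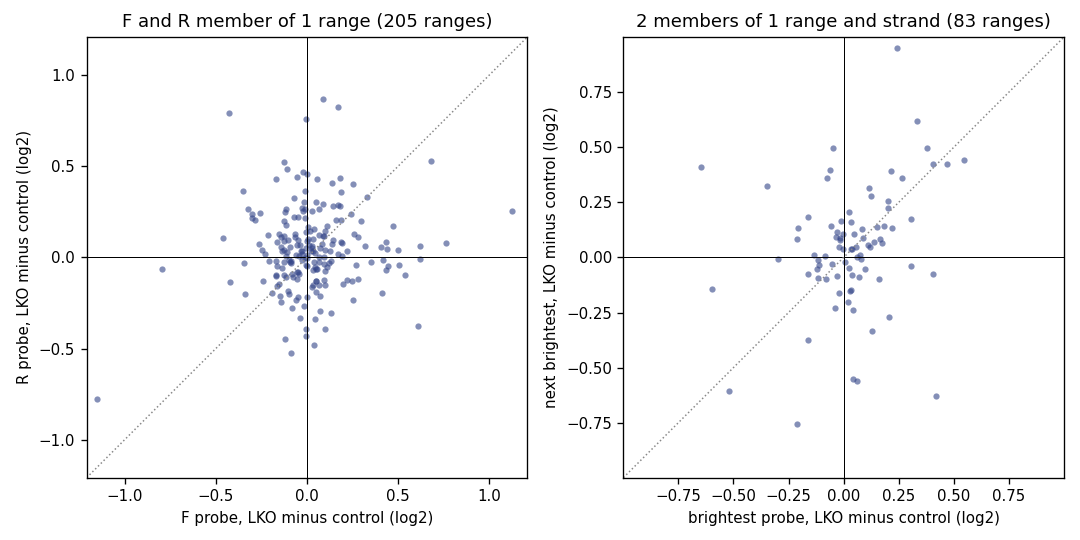
LKO minus control differences (log2) of the F probe (x axis) and the R probe (y axis) in the 205 ranges with members on both strands (left), and of the brightest and the next brightest member in the 83 ranges with at least 2 members on a strand (right); dotted lines mark equal differences. Points scatter around 0 in both panels, with correlations of 0.11 and 0.27.

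For comparison, all 801 probes for NR accessions above background had a median log2 difference of 0.05, and 15% had an unadjusted p under 0.05, against 10.8% of all tested probes. From a list of 20 named noncoding RNAs of RefSeq, 18 were on the array and 16 above background; 13 had higher and 3 lower values in LKO, with a median of 0.28, 6 at an unadjusted p under 0.05 and none past the adjusted threshold. The list is a hand-made choice and does not stand for its class. Neat1, the RNA scaffold of nuclear paraspeckles, gave 51.0, 53.8 and 69.3 in control and 101, 98.3 and 77.7 in LKO livers (0.78 ± 0.17; limma, adjusted p = 0.248). Kcnq1ot1, an imprinted antisense transcript, differed by 0.30 ± 0.10 (adjusted p = 0.363) and Oip5os1 by -0.35 ± 0.10 (adjusted p = 0.319). H19 and Miat did not meet the detection rule.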

How the data were processed

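Each of the 6 livers (3 control, 3 LKO) was measured on 1 one-colour Agilent array. Per the file headers, the scanner software (Feature Extraction 11.5.1.1, named also in the submitters' processing notes) gave each spot a background-corrected processed signal, an intensity, and quality flags of 0 or 1; the design names build mm9. The authors' deposited value table, also of intensities on a linear scale, equalled the processed signal times 1 constant per array (2.075 to 2.4805), with column medians of 55.3 to 63.7. The direction and centring of those values are therefore known, while the sources used here do not give the rule behind the constants.

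Each processed signal was divided by its array's 75th percentile over the spots besides controls, and log2 was taken. Outlier spots were left out and spots of a probe averaged (300 probes printed 10 times, called where at least 50% of their spots were). Probes well above background on all 3 arrays of a group (27950 of 56605) were tested with limma 3.58.1 (R 4.3.3; lmFit, eBayes, two-sided, Benjamini-Hochberg over all of them), fitted over all 6 arrays, and this was tested on simulated data. Errors are limma SEs of the log2 difference; the number of arrays, 3 a group, limits the precision.

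The members and lists were chosen with earlier results of these data known. Named members were any past adjusted p 0.05 (there were none), the 6 higher and 6 lower with the smallest p among those on all 6 arrays without overlap, the 6 brightest, up to 4 a direction called in 1 group only, the 3 ranges with most members on a strand, the 4 both-strand ranges with the brightest dimmer strand, and 2 probes on either side of the detection limit, 1 probe per range and strand, none from chromosome 18. Members in ranges within 100 kb of those 6 higher and 6 lower ones are given beside them, since only these probes carry coordinates in the files. Marker lists for 9 kinds of cell or tissue were summed; for endothelial, stellate, lymphocyte, bile duct, erythroid, and pancreas and adipose lists the groups' summed signals overlapped. Erythroid markers had higher values in LKO in 4 of 4, and bile duct, stellate, lymphocyte and erythroid lists had 1 marker each at an unadjusted p under 0.05.

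Alternatives were the scaling, background correction (normexp with offset 50, computed on the median spot signal, the foreground column used here), the authors' value table, the filter, the variance model, the slide column, the replicate number as a block and leaving out each array. All arrays came from 1 slide and 1 scan. The controls and LKO 1 lay in column 1 of the slide, and LKO 2 and LKO 3 in column 2. Genotype and slide column can therefore not be told apart for LKO 2 and LKO 3. Replicate numbers did not pair the mice: the correlations of same-numbered arrays' deviations were 0.0048, -0.043 and -0.0508.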

Additional observations from a re-analysis of the deposited data

How the results depend on the processing

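The number of probes past adjusted p 0.05 among all tested, 6, was 13 with median centring, 24 with normexp, 2 without the filter on dim probes, 1 with probes above background on all 6 arrays, 25 with a trended robust variance, 3 with the slide column and 2 to 10 without 1 array (3 without control 1 or control 3, 10 without LKO 1, 2 without LKO 3). Among the members, 0 became 1 with normexp, with the value table and with the trended robust variance, A_30_P01021359 each time (0.71, 1.18 and 1.18), and 0 in the other alternatives run, including each array left out. The 180 members at an unadjusted p under 0.05 became 109 without the filter, where the variance was shared with undetected probes, 101 with the slide column, and 134 to 212 without 1 array. Between 396 and 496 members, against 260, did not overlap without 1 array. For either count, the shares of all tested probes were not counted under the alternatives. With the replicate number as a block, which did not pair the mice, 164 members (108 higher, 56 lower) had an unadjusted p under 0.05, 0 passed the adjusted one, and 4 of all probes did. The rule of a positive and significant signal gave 2896 members, against 1714; above background on 2 of 3 arrays gave 1906.

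Of 39 named members, 27 kept their sign in every alternative run and 12 did not, each of these with a difference of 0.10 or less in size. A_30_P01031448 was -0.04 and A_30_P01031264 -0.07 with quantile normalization. With median centring A_30_P01031264 was -0.05, A_30_P01027463 -0.02 and A_30_P01028952 -0.01, and with normexp A_30_P01031264 was -0.01. With the slide column A_30_P01020570 was 0.03, A_30_P01023896 0.02 and A_30_P01020383 -0.12. The cause was not tested. Leaving out 1 array turned the sign of 10 members, whose values then ran from -0.00 to 0.10 for A_30_P01031448, -0.06 to 0.02 for A_30_P01032016, -0.03 to 0.05 for A_30_P01031264, -0.09 to 0.04 for A_30_P01020570, -0.09 to 0.02 for A_30_P01023523, -0.07 to 0.03 for A_30_P01024700, -0.14 to 0.00 for A_30_P01027695, -0.06 to 0.03 for A_30_P01023896, -0.11 to 0.03 for A_30_P01018039 and -0.02 to 0.10 for A_30_P01028952.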
